A study of Mus musculus with 22 samples.

Results

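Megakaryocyte-primed cells were defined among sorted fetal liver LSK cells as those in which the raw counts of the marker genes Pf4, Gp9, Gp1bb and Ppbp summed to 3 or more. The gate held 71 of the 15707 deposited cells, and all 71 were among the 15678 cells kept for the comparisons (at least 500 counts and under 20% mitochondrial counts). The values that chose the cells were the counts of 3 genes, since the single-cell table of 14780 genes has no row for Ppbp. Every gene of these cells was measured in the same libraries as the markers, so the comparison of gated with other cells is a description without a test. Comparisons of genotypes, and the bulk RNA, histone and whole-liver libraries, were not used by the gate.

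Megakaryocytes are the polyploid cells that shed platelets into the blood. Pf4 and Ppbp encode chemokines stored in platelet alpha granules, and Gp9 and Gp1bb encode subunits of the receptor by which platelets bind von Willebrand factor. In the fetal liver, cells that already carry megakaryocyte transcripts are found within the stem and progenitor pool, ahead of the rise in ploidy and granule content that marks the mature lineage.

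All libraries came from mouse embryos at E14.5. The deficient group (KO) was Mettl3fl/fl with Vav-Cre, a recombinase under a promoter active in blood cells, and the control group (WT) was Mettl3fl/fl without Vav-Cre, so both genotypes carried the floxed alleles of Mettl3, which encodes the catalytic subunit of the RNA m6A methyltransferase. LSK cells, which lack lineage markers and display Sca-1 and c-Kit, gave single-cell RNA-seq (2 KO and 2 WT libraries), bulk RNA-seq (3 and 3) and CUT&RUN of H3K4me3, a histone mark of active gene starts (2 and 2). Unsorted fetal liver gave input RNA (2 and 2), and the paired pull-down libraries are not used here. The submitters describe the libraries as biological replicates.

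The promoters of the 3 genes that define the gate are shown first, followed by those of Itga2b and Tuba8, 2 other genes of the megakaryocyte lists that were high in gated cells and in which bulk RNA and H3K4me3 both rose (chosen after their values were seen). Each is the run of 250 bases before the RefSeq gene start, written 5′ to 3′ on the gene's strand, from the GRCm38.p6 table of RefSeq. The coordinates are chr5:90772185-90772434 (plus strand) for Pf4, chr6:87777820-87778069 (plus) for Gp9, chr16:18622404-18622653 (minus) for Gp1bb, chr11:102469884-102470133 (minus) for Itga2b and chr6:121210484-121210733 (plus) for Tuba8. Capitals mark matches, on either strand, to GATAA, a form bound by GATA factors, or to CCGGAAG or AGGAAG, forms bound by ETS factors such as Fli1.
Pf4: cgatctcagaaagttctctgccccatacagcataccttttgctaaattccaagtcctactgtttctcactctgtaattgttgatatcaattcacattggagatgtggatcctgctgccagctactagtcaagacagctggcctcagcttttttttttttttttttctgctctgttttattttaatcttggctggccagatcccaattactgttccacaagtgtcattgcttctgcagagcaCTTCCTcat
Gp9: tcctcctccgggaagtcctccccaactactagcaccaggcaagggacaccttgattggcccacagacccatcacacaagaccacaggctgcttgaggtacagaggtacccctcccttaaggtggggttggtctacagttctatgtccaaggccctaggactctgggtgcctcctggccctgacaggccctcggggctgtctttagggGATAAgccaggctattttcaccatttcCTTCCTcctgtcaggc
Gp1bb: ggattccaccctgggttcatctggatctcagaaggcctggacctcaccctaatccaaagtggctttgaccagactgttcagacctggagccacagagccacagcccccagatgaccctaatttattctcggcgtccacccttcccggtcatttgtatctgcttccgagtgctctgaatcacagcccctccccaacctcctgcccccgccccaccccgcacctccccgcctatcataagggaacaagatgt
Itga2b: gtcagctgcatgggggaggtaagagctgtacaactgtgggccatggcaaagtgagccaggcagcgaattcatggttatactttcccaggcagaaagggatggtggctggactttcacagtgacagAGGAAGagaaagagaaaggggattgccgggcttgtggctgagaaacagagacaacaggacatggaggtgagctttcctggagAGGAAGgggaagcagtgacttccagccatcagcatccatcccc
Tuba8: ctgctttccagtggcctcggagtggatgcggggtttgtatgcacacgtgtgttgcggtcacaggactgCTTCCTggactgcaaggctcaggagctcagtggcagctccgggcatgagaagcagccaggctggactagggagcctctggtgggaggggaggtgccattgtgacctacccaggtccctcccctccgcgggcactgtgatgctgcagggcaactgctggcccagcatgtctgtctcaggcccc

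The Pf4 window held 1 match to an ETS form and no match to GATAA. The Gp9 window held a GATAA match and an ETS match, and the Gp1bb window held neither. The Itga2b window held 2 ETS matches and the Tuba8 window 1. Over all 27025 promoters of the table, 23% held GATAA and 34.2% held an ETS form; the 2 ETS forms differ in the base before GGAAG, so 1 stretch cannot match both. Of the 25 genes that were highest in gated cells, 19 had a promoter in the table. Among these, 1 held GATAA (5.26%) and 4 held an ETS form (21.1%), both shares below those of all promoters. With so few promoters the difference was not tested, and the windows shown do not stand for the list. A match is a run of letters and not a measured binding site.

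Mettl3 itself was read first. In bulk LSK RNA its level was 4.13, 6.31 and 5.52 CPM (the count scaled to a library of 1000000 counts) in the KO libraries and 43.0, 43.0 and 33.2 CPM in the WT libraries, a log2 fold change of -2.91, and the groups did not overlap. In the single-cell libraries the direction was opposite: the cells outside the gate had 64.6 and 52.4 CPM in the libraries labelled KO against 36.6 and 33.2 CPM in those labelled WT (log2 fold change 0.74, SE 0.17, adjusted p = 0.256, edgeR quasi-likelihood test). Gated cells held 1 and 3 Mettl3 counts in the KO libraries and 3 and 0 in the WT libraries. The sources used here do not say which part of Mettl3 is removed or which part of its message the bead-captured single-cell counts read, so this count does not check the labels. KO and WT name the single-cell libraries as labelled throughout. Xist, the RNA of the inactive X chromosome, had 3069 and 3538 counts in KO 1 and KO 2 and 0 in both WT libraries, while Y-linked genes had 0 counts in both KO libraries and 674 and 836 in WT 1 and WT 2. In the single-cell libraries sex and genotype therefore cannot be told apart. In bulk LSK RNA, 3 of 5 sex-linked genes (Xist and Y-linked genes) were lower in KO and 0 higher, so the sexes may be unevenly spread there too. In whole liver, Xist stood at 0 and 455 CPM in KO and at 821 and 3.93 CPM in WT, so it differed within both groups. The part of sex in the bulk and liver values was not tested.

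The gate was filled unevenly by the 4 single-cell libraries. KO 1 gave 25 gated cells of 4920 (0.508%, exact Clopper-Pearson 95% interval 0.329 to 0.749%) and KO 2 gave 19 of 3884 (0.489%, 0.295 to 0.763%). WT 1 gave 23 of 2731 (0.842%, 0.535 to 1.26%) and WT 2 gave 4 of 4143 (0.0965%, 0.0263 to 0.247%). The lowest and the highest share were both WT libraries, and the KO libraries lay between them. These intervals cover counting error only.

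The mean share was 0.499% ± 0.0134 (SD, n = 2) in KO and 0.469% ± 0.527 (SD, n = 2) in WT. The difference of 0.0293 percentage points was smaller than the pooled SD of 0.373 (two-sided exact permutation test over the 4 libraries, p = 1; with 2 against 2 the smallest p possible is 0.333). Leaving out WT 2 gave a difference of -0.344 percentage points and leaving out WT 1 gave 0.402. The sign of the difference in shares thus rested on which WT library was kept. With a marker sum of 2 or more, 44, 62, 39 and 28 cells of KO 1, KO 2, WT 1 and WT 2 passed, shares of 0.894%, 1.60%, 1.43% and 0.676%.

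**Figure D1:**
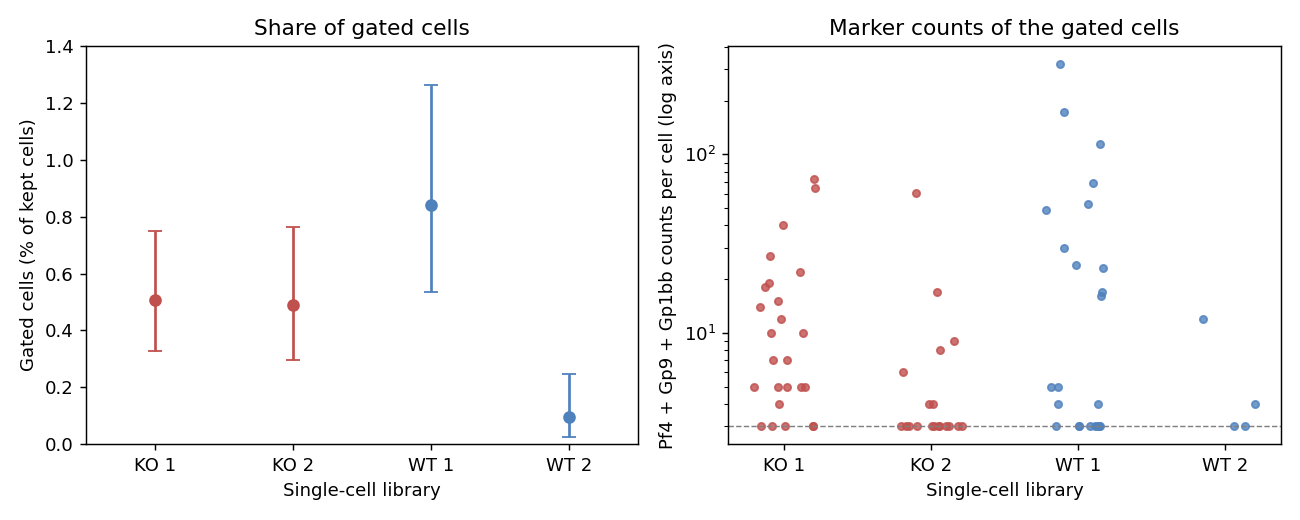
Left: share of kept cells in the gate (%) for each single-cell library, with exact 95% binomial intervals. Right: summed Pf4, Gp9 and Gp1bb counts of each gated cell on a log axis, the dashed line marking the minimum of 3. WT 2 stands below the other 3 libraries with 4 cells, and the highest sums, up to 321, are in WT 1.

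Depth differed along with the gate. Gated cells had a median of 2879 counts and the other cells 1719, and the medians of gated and other cells were 2165 and 1473 in KO 1, 3979 and 2129 in KO 2, 4851 and 2092.5 in WT 1, and 1554 and 1560 in WT 2. Since a deeper cell reaches 3 marker counts more easily, the part of depth in the share was not tested beyond thinning. For this, cells with at least 1000 counts were thinned to 1000, and shallower cells were left out. With a sum of 2 or more the shares were 0.589%, 0.250%, 0.568% and 0.265% in KO 1, KO 2, WT 1 and WT 2. The difference between genotypes was 0.00275 percentage points. With 3 or more the shares were 0.417%, 0.125%, 0.406% and 0.0295%, a difference of 0.0535 percentage points. KO 1 was the highest library at both sums, so the KO libraries no longer lay between the WT libraries. The gated cells summed to 64501 counts in KO 1, 99153 in KO 2, 125892 in WT 1 and 7212 in WT 2. In WT 2 a count of 0 therefore still allows up to 416 CPM (3 counts), and gated values are given below with and without that library. The median mitochondrial share was 2.76% in gated and 3.89% in other cells.

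Among the markers, Pf4 carried most of the gate. It had 1331 counts in the 71 gated cells and 325 in all others, so 80.4% of its counts fell inside the gate, and 60 gated cells (84.5%) had at least 1. Its level in the summed gated cells was 5411 CPM in KO 1, 1029 CPM in KO 2, 6855 CPM in WT 1 and 2357 CPM in WT 2. A single WT 1 cell held 313 of these counts. Outside the gate, 2.12%, 2.02%, 3.47% and 0.870% of cells in KO 1, KO 2, WT 1 and WT 2 had a Pf4 count, so WT 2 was lowest there too.

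Gp9 and Gp1bb behaved unlike each other. Gp9 had 103 counts in gated cells and 673 outside, so that 13.3% of its counts lay in the gate, while Gp1bb had 47 and 43, or 52.2% in the gate. Gp9 was seen in 48 gated cells and Gp1bb in 23. All 3 markers were found together in 13 cells, Pf4 with Gp9 in 24, Pf4 with Gp1bb in 8 and Gp9 with Gp1bb in 2, and 15 cells qualified on Pf4 alone and 9 on Gp9 alone. Of those 9 Gp9-only cells, 5 were in KO 2 and 4 in WT 1.

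The marker sum ranged widely among the members. Its median was 7 in KO 1 (3 to 73), 3 in KO 2 (3 to 61), 5 in WT 1 (3 to 321) and 3.5 in WT 2 (3 to 12). Of the 19 KO 2 cells, 12 had a sum of exactly 3, against 5 of 25 in KO 1, 8 of 23 in WT 1 and 2 of 4 in WT 2. A sum of 10 or more was reached by 26 cells, of which 12 were in KO 1, 2 in KO 2, 11 in WT 1 and 1 in WT 2. The strongly marked cells thus came mostly from the first library of each genotype.

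Genes outside the gate were read by the level of the marker sum, pooled over libraries. The summed list of other megakaryocyte surface genes (integrins, receptors and adhesion molecules) stood at 158 CPM in the 14668 cells with a sum of 0, 549 CPM in the 33 cells with 3 or 4, 1035 CPM in the 12 cells with 5 to 9 and 2118 CPM in the 26 cells with 10 or more. The list of platelet granule, cytoskeleton and signalling genes stood at 2594, 4162, 6437 and 9174 CPM in the same bands. Both lists were higher in each higher band. The median counts per cell in these bands were 1683, 2974, 2255 and 2582.5, so within the gate depth did not follow the order of the sum.

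Single genes outside the gate also differed between the bands. Rap1b, a small GTPase that activates platelet integrins, was at 180 CPM with a sum of 0, 625 CPM with 3 or 4, 1080 CPM with 5 to 9 and 2343 CPM with 10 or more. Rab27b, a GTPase of granule secretion, went from 4.04 CPM to 384 CPM between the lowest and highest band, and Itga2b, the integrin alpha subunit known as CD41, from 4.76 CPM to 309 CPM, though it was at 68.7 CPM with 3 or 4 and 45.0 CPM with 5 to 9. Cd9, a tetraspanin abundant on platelets, went from 29.1 CPM to 431 CPM. In the opposite direction, Cd34, a progenitor surface antigen, was at 230 CPM with a sum of 0 and 18.7 CPM with 10 or more, Hmga2, a chromatin protein of fetal stem cells, at 281 and 28.1 CPM, and the summed granulocyte list at 1723 and 487 CPM. Since 23 of the 26 cells in the highest band came from KO 1 and WT 1, band and library are not separate. Rap1b, Rab27b and Itga2b were picked as high, and Hmga2 as low, in the gated cells that these bands divide.

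**Figure D2:**
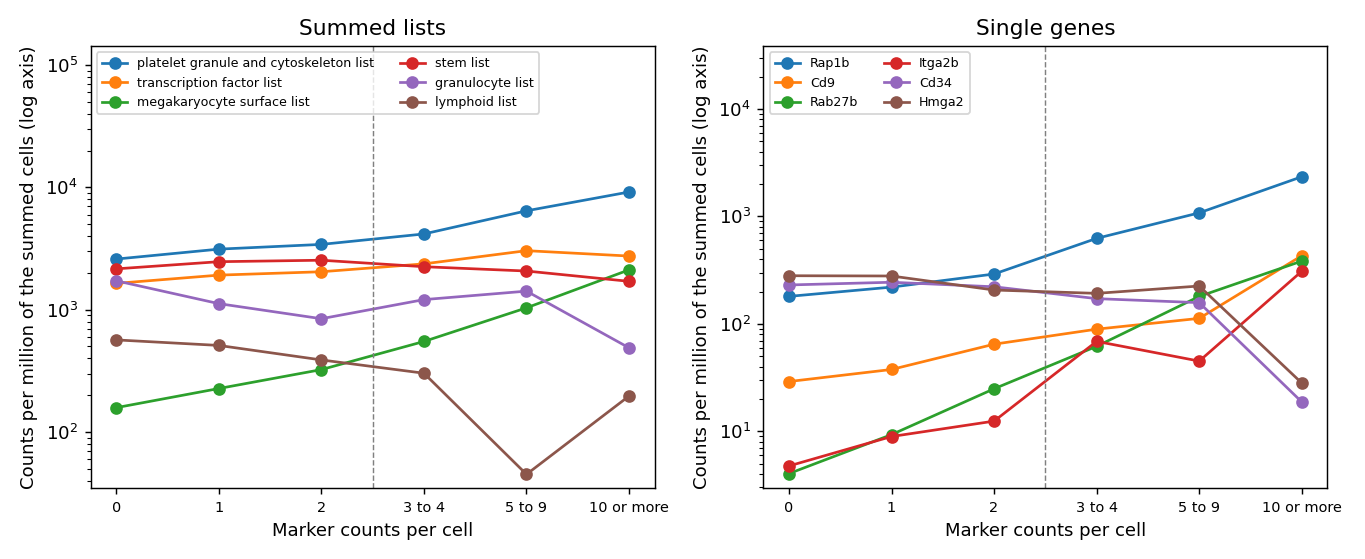
CPM (log axis) of summed lists (left) and single genes (right) in cells grouped by their Pf4, Gp9 and Gp1bb counts, pooled over the 4 libraries, with the dashed line at the edge of the gate. Rap1b, Cd9 and Rab27b are higher in every higher band, whereas Cd34 and Hmga2 are lowest in cells with 10 or more marker counts.

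At the edge of the gate, the 27 cells with a sum of exactly 3 were set beside the 102 cells with a sum of 2. The surface list stood at 537 CPM just inside and 323 CPM just outside, and Rap1b at 680 and 291 CPM. Rab27b stood at 67.2 and 24.9 CPM (8 and 10 counts) and Treml1 at 33.6 and 7.46 CPM (4 and 3 counts). Rap1b, Rab27b and Treml1 were picked as high in gated cells, the 27 included, so their difference is partly built in. Of the 27 cells, 12 were in KO 2, as were 43 of the 102. Cd34 stood at 151 CPM just inside and 221 CPM just outside.

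The label was checked against genes that the gate did not read. In every library the summed surface list was higher in gated than in other cells: 1287 against 142 CPM in KO 1, 666 against 193 in KO 2, 1525 against 135 in WT 1 and 1525 against 177 in WT 2. The platelet list ranged from 5648 to 7318 CPM in gated and from 2384 to 2849 CPM in other cells. Genes were counted as higher where the mean log2 ratio of gated to other cells (10 CPM added to both) was at least 1 and the ratio was above 0 in 4 of 4 libraries, which held for 114 of 11069 genes (1.03%), and for 150 (1.36%) over the 3 libraries without WT 2. Only genes above a minimum of counts over gated and other cells together were counted, so a gene could enter through the gated cells. Treml1, with 97 counts in other and 36 in gated cells, reached the minimum only with the gated cells included. Of the 3 lists, 21, 39 and 27 genes had a row in the single-cell counts. Among those past the minimum, 4 of 14 surface genes, 8 of 33 platelet genes and 3 of 26 megakaryocyte transcription factors were higher, and 7, 15 and 5 without WT 2. The median ratio was 0.66 for the surface list, 0.57 for the platelet list and -0.19 for the transcription factors, against -0.32 over all genes (without WT 2, 1.17, 1.00, 0.45 and -0.08).

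The defining megakaryocyte genes were present but not uniform. Itga2b, the alpha subunit of the platelet fibrinogen receptor, was seen in 25.4% of gated and 1.16% of other cells, and the beta subunit, Itgb3, in 15.5% and 0.384%. Gp5, another subunit of the von Willebrand factor receptor, was seen in 14.1% of gated cells. Vwf, von Willebrand factor itself, had only 1 count over all gated cells, in WT 2. The label of megakaryocyte-primed cells therefore rests on other surface and granule genes and not on Vwf. Ly6a, which encodes Sca-1 of the sort, stood at 36.8 CPM with a marker sum of 0 and 34.3 CPM (5 counts) with 3 or 4. It had 0 counts in the 12 cells with 5 to 9 and in the 26 cells with 10 or more. Kit, for c-Kit of the sort, stood at 46.0 CPM with a sum of 0 and 56.2 CPM (6 counts) with 10 or more. Whether the strongly marked cells are progenitors or more mature megakaryocytes was not tested.

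Markers of the other lineages that the sort could hold were lower or near the level of the other cells. Genes counted as lower (mean log2 ratio of -1 or less, below 0 in 4 of 4 libraries) made up 459 of 11069 (4.15%), and 226 (2.04%) without WT 2. Among genes past the same minimum of counts, they included 7 of 18 lymphoid genes (5 without WT 2) and 5 of 15 granulocyte genes (5). They also included 6 of 28 stem cell genes (3, and another 3 were higher) and 3 of 23 erythroid genes (3). The summed lymphoid list ranged from 139 to 286 CPM in gated and from 343 to 857 CPM in other cells, without overlap. The hepatocyte list stood at 0 to 23.8 CPM in gated cells and the stromal list at 0 to 31.0 CPM.

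The erythroid and granulocyte lists overlapped between gated and other cells. The erythroid list ranged from 605 to 1732 CPM in gated and from 656 to 2178 CPM in other cells. The granulocyte list stood at 2248 and 1039 CPM in gated cells of KO 1 and KO 2 and at 334 and 139 CPM in WT 1 and WT 2. By counts of their own markers, 4 gated cells also passed a granulocyte gate, 2 an erythroid gate and 4 a lymphoid gate, 9 cells in all, and 6 passed a stem cell gate. Whether these are doublets was not tested: Scrublet called 1 of 15678 cells a doublet, which is too few for the caller to have worked, and no doublets were removed. Across libraries 8 cell barcodes were shared, none of them by a gated cell.

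Platelet secretion and surface genes led the gated cells. Rab27b had the highest mean log2 ratio, 3.68, with 233, 131, 230 and 139 CPM in gated cells of KO 1, KO 2, WT 1 and WT 2 against 5.88, 4.68, 3.50 and 4.21 CPM in other cells. Treml1, an alpha granule receptor, followed with 3.42, at 109, 40.3, 183 and 277 CPM against 2.73, 2.86, 1.54 and 3.25 CPM. Itga2b had a ratio of 2.98, at 109, 30.3, 270 and 139 CPM against 6.72, 5.11, 5.18 and 3.37 CPM. In all 3 genes every gated value lay above every other value, and KO 2 was the lowest gated library. The WT 2 values of Rab27b and Itga2b are 1 count each.

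Rap1b was the most abundant of the leading genes, with 389 counts over the gated cells. It stood at 1333, 968, 1581 and 1109 CPM in gated cells and at 201, 183, 174 and 175 CPM in other cells of KO 1, KO 2, WT 1 and WT 2, a mean log2 ratio of 2.68. Rgs18, a regulator of G protein signalling in platelets, stood at 651, 323, 421 and 693 CPM against 128, 154, 104 and 130 CPM (1.88). For both genes the gated values lay above all values of other cells, and those of the genotypes overlapped.

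Tuba8, an alpha tubulin, had a ratio of 3.24, at 202, 161, 175 and 277 CPM against 14.3, 22.8, 7.28 and 7.59 CPM. F2r, a thrombin receptor, had a ratio of 3.18, and the difference was largest in WT 2, where 4 counts gave 555 CPM. Ehd3, an endocytic recycling protein, had 3.01 and Slc14a1, a urea transporter also found on red cells, 3.03. Slc14a1 was also seen in erythroid-gated cells: it stood at 111 CPM in the 71 gated cells, 34.7 CPM in 375 cells of an erythroid gate outside the megakaryocyte gate (3 or more counts of Klf1, Car1, Ermap and Aqp1) and 4.19 CPM in cells of no gate.

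Among transcription factors, Zfpm1, the GATA1 cofactor known as FOG1, had a ratio of 2.31, at 77.5, 40.3, 79.4 and 139 CPM against 14.1, 7.45, 5.46 and 5.06 CPM, without overlap. Gata2, a GATA factor of early progenitors, had a ratio of 1.44. Gata1 was seen in 22.5% of gated and 3.79% of other cells, but above the other cells in 2 of 4 libraries only. Fli1, the ETS factor of the lineage, had a ratio of 0.37, or 1.50 without WT 2, and Meis1, a homeobox factor, 0.26 or 1.33. Both had 0 counts in the 4 cells of WT 2, where up to 416 CPM would go unseen.

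The other leading genes had ratios between 1.56 and 2.48. They were Tmem40 (2.48), Prkar2b, a regulatory subunit of protein kinase A (1.99), Nt5c3 (1.89), Lims1, an adaptor of focal adhesions (1.86), Cited2, a transcriptional coregulator (1.83), Pdcd4, an inhibitor of translation (1.82), Gng11, a G protein gamma subunit (1.81), Rabgap1l (1.74), Tm7sf3 (1.71), Slc35d3, needed for platelet dense granules (1.63), Fyb, an adaptor of integrin activation (1.62), Unc119 (1.60), Rsu1, which binds Lims1 (1.59), and Tnnt1, a troponin (1.56). Rabgap1l was the most abundant of these in KO 1 and WT 1, at 450, 121, 580 and 277 CPM in gated cells of KO 1, KO 2, WT 1 and WT 2. In WT 2 each of these 14 genes rested on 1 to 4 counts.

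Several further members of the megakaryocyte lists missed the rule only through WT 2. Cavin2, a caveolar coat protein of platelets, had 17, 20, 15 and 0 counts in gated cells of KO 1, KO 2, WT 1 and WT 2, and a ratio of 2.59, or 3.77 without WT 2. Plek, the platelet substrate of protein kinase C, had 33, 24, 45 and 0 counts (1.54, or 2.91), and Cd9 had 15, 14, 35 and 0 (1.37, or 2.53). Timp3, a protease inhibitor, had 2, 6, 20 and 0 (2.10, or 2.80). P2ry1, an ADP receptor of platelets, was higher in 4 of 4 libraries with a ratio of 2.76, on 7, 6, 3 and 3 counts, under the 20 counts asked of a leading gene.

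The genes lowest in gated cells included factors of immature and immune cells. Sox4, a factor of immature progenitors, had a ratio of -2.36, at 0, 70.6, 135 and 0 CPM in gated cells against 149, 159, 163 and 165 CPM in other cells. Hmga2 had -2.06, at 62.0, 192, 143 and 0 CPM against 251, 309, 253 and 295 CPM, and without WT 2 its ratio was -1.10. The others were Milr1, Cd27, Lst1, Irf8, Trbc2, Mndal, BC035044 and Mt2, with ratios from -2.35 to -2.06. All 10 had 0 counts in the gated cells of WT 2, where up to 416 CPM would go unseen. Irf8, a factor of dendritic cells and monocytes, had 3 counts in all.

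**Figure D3:**
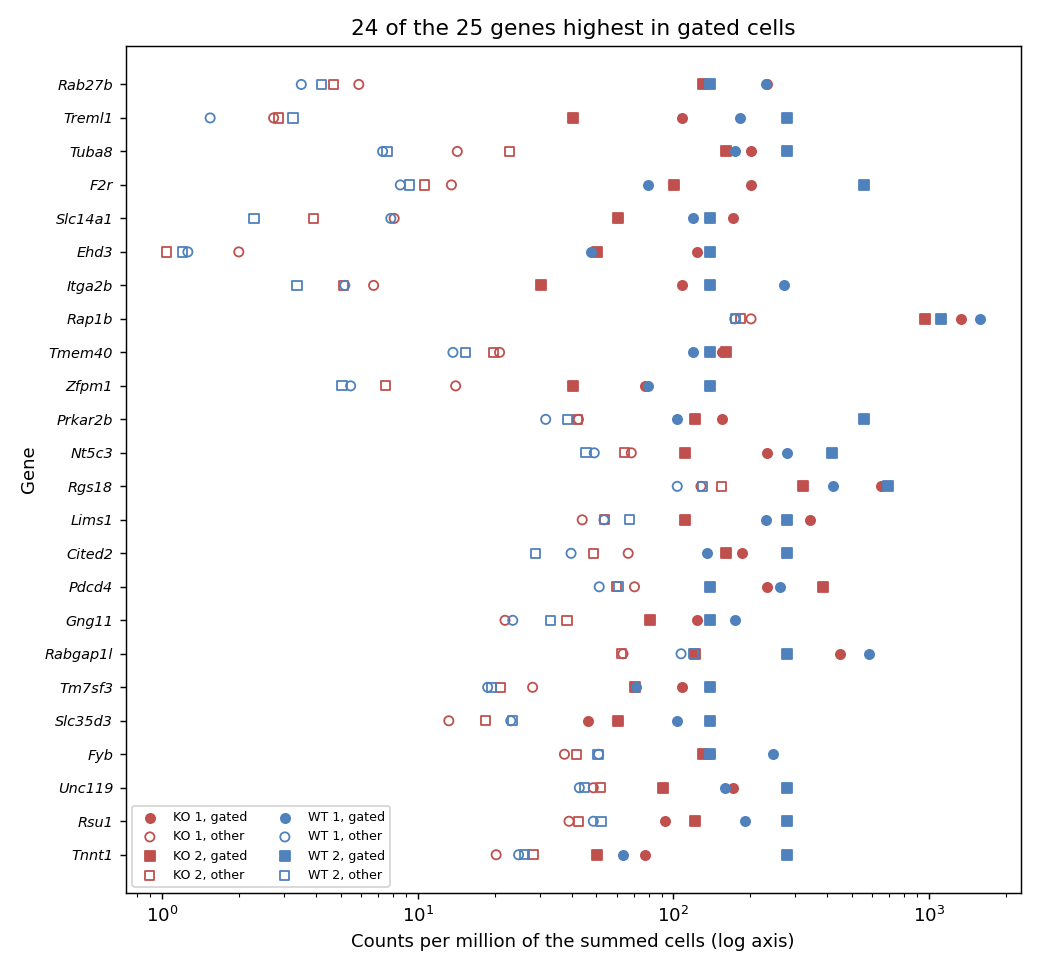
CPM (log axis) of 24 of the 25 genes with the highest mean ratio of gated to other cells, in the gated cells (filled) and other cells (open) of each library, KO in red and WT in blue. The filled points lie to the right of the open points of the same library for all 24 genes shown, and Rap1b is the most abundant.

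Detection of these genes, which were picked as high in the same cells, was also described at equal depth, over cells pooled from the 4 libraries and without a test, with each cell thinned to 1000 counts and shallower cells left out (68 of 71 gated and 13058 other cells remained). Rap1b was then seen in 58.8% of gated cells against 16.4% of other cells and 16.5% of 716 cells of a granulocyte gate (median depth before thinning 4666 counts), a lineage not known for platelet genes. Treml1 was seen in 17.6% of gated cells, 0.291% of other cells and 0 of 716 granulocyte-gated cells, which allows up to 0.514% (exact 95% bound on the share of thinned cells, counting error only; 3 of 718 had a count before thinning). Rab27b was seen in 14.7%, 0.475% and 0.279%, and Tuba8 in 16.2%, 1.28% and 1.26%. Before thinning, Rap1b was seen in 80.3% of gated and 30.1% of other cells.

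The first test outside the gate's own counts compared genotypes within the gated cells. Of 1694 genes tested on counts summed per library, 2 were called at an adjusted p under 0.05 (0.118%; edgeR quasi-likelihood test with Benjamini-Hochberg adjustment), and 107 (6.32%) had an unadjusted p under 0.05. DESeq2 called 0 of the same genes, with 7 under an unadjusted 0.05. The called genes were Xist, which follows the sex of the libraries, and Mpo, a granule enzyme of neutrophil precursors. On simulated counts of these genes, 69 of 100 changes of 2 on the log2 scale and 11 of 100 changes of 1 were recovered. The simulation used a fixed dispersion that was not estimated from these libraries. Smaller differences were mostly not recovered under that setting, and the sensitivity of the real fit was not measured.

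Mpo had 29 and 74 counts in the gated cells of KO 1 and KO 2 and 16 and 0 in those of WT 1 and WT 2. The difference was 2.27 on the log2 scale (SE 0.50, adjusted p = 0.0480, edgeR). The call was lost with library size alone, DESeq2, no filter, the replicate number as a block, without KO 2 and without WT 1, and Mpo was not among the genes tested with a marker sum of 5 or more. In KO 2, 2 cells held 27 and 25 of the 74 counts. Without the 9 cells that also passed a granulocyte, erythroid or lymphoid gate, the first of which reads Mpo itself, the fold change was 1.20 (adjusted p = 0.718), and without KO 2 it was 1.84 (adjusted p = 0.16). Prtn3, another enzyme of the same granules, had 29, 13, 6 and 1 counts (2.22, adjusted p = 0.414). The granulocyte list given above was likewise higher in the gated cells of both KO libraries, and in bulk LSK RNA, where 21.6% of all genes rose and 22.6% fell, 13 of 19 tested granulocyte genes rose and 0 fell. Its part in the Mpo difference was not tested.

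No megakaryocyte gene was called between genotypes in gated cells. Of the 96 genes on the 3 lists, 26 passed the filter on low counts, with a median log2 fold change of -0.05 against 0.06 over all tested genes, and 2 of the 26 were lower at an unadjusted p under 0.05. Of the 25 leading genes, 21 passed the filter, 0 were called by edgeR or DESeq2, and 3 were lower at an unadjusted p under 0.05. The gate genes chose these cells, so their counts are given without a test. Pf4 had 349, 102, 863 and 17 counts in KO 1, KO 2, WT 1 and WT 2, Gp9 had 18, 35, 45 and 5, and Gp1bb had 16, 8, 23 and 0. The highest and the lowest count of Pf4 and of Gp1bb were both in WT libraries.

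Itga2b, which the gate did not read, had too few counts for a firm value. It had 7 and 3 counts in the KO libraries, from 4 and 2 cells, and 34 and 1 counts in the WT libraries, from 11 and 1 cells. The difference was -2.11 on the log2 scale (SE 0.59, adjusted p = 0.391, edgeR), and without WT 2 it was -2.25 (adjusted p = 0.0164), where WT 1 alone stands for the group and is assumed to vary as the KO libraries do. Treml1 had 7, 4, 23 and 2 counts, a fold change of -1.54 (adjusted p = 0.630). In both genes WT 1 held most of the counts, and it also held the cells with the highest marker sums.

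Whether the genotypes differed more or less in gated than in other cells was tested as an interaction. None of 11647 genes was called (0%, edgeR quasi-likelihood test with the library as a block), and 227 (1.95%) had an unadjusted p under 0.05. Of the 81 list genes tested, 1 was higher and 7 were lower at an unadjusted p under 0.05, with a median of -0.33 against 0.02 over all genes. The difference was -2.31 for Itga2b and 1.69 for Mpo, each with an adjusted p of 1. Without WT 1, where WT rests on the 4 gated cells of WT 2, 9 genes were called in this test, and without WT 2 there were 2. In the other cells alone, 1 of 13410 genes was called between genotypes (0.00746%), Xist, and 0 of the 84 list genes tested, of which 9 were higher and 4 lower at an unadjusted p under 0.05 (15.5%, near the 14.4% of all genes). DESeq2 called 293 genes there, among them 1 list gene.

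Bulk LSK RNA gave the deepest measurement of the same genes, from 20088100 to 40641081 counts per library. These libraries hold all LSK cells, of which the gate was under 1% in single cells, so fewer cells of a type and less RNA per cell cannot be told apart, nor can megakaryocyte-primed cells be told from other LSK cells that express a gene. Of 14405 genes tested, 3114 (21.6%) were higher and 3253 (22.6%) lower in KO; with library size as the only scaling these counts were 2463 and 4143. Of the 96 list genes, 90 were tested, 14 were higher and 30 lower, with a median log2 fold change of -0.10 against -0.02 over all genes. The 30 became 19 without KO 2 or without KO 3.

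The 3 lists were counted separately, and the difference between them was not tested. Of 22 tested surface genes 5 rose and 5 fell, of 41 platelet granule and cytoskeleton genes 5 rose and 14 fell, and of 27 transcription factors 4 rose and 11 fell. Of the 25 genes that led the gated cells, 10 rose and 5 fell. Beside these lists, 24 of 30 tested stem cell genes fell and 3 rose in the same libraries, and their part in the counts above was not tested.

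The gate genes were scarce in bulk RNA. Pf4 stood at 4.94, 2.43 and 3.28 CPM in KO and 9.15, 3.02 and 0.940 CPM in WT (log2 fold change -0.32, adjusted p = 0.698 by edgeR), with overlapping groups; without WT 1 the value was 0.77. Gp9 fell from 5.81, 8.68 and 9.50 CPM in WT to 4.89, 5.34 and 5.06 CPM in KO (-0.65, SE 0.18, adjusted p = 0.0188), and the call was lost without any 1 of 5 of the 6 libraries (adjusted p 0.053 to 0.081). Gp1bb was at most 1.59 CPM in any library (0.82, adjusted p = 0.136). Ppbp stood at 6.32 CPM in WT 1 and at most 0.655 CPM in the other 5 libraries (-2.56, adjusted p = 0.0617). WT 1 was the highest library for Pf4 as well as for Ppbp.

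Receptors and adhesion genes went both ways. Gp5 rose from 4.49, 3.15 and 3.71 CPM in WT to 12.4, 8.36 and 10.0 CPM in KO (log2 fold change 1.44, SE 0.19, adjusted p = 3.85e-04 by edgeR), without overlap. Itga2b rose from 23.3, 13.5 and 16.7 CPM to 35.9, 26.9 and 27.4 CPM (0.76, SE 0.19, adjusted p = 0.0118), also without overlap. F2rl2, a thrombin receptor subunit of mouse platelets, rose by 1.03, Itga6, an integrin alpha subunit of stem and progenitor cells, by 0.80 and F2r by 0.43. The Itga2b direction was thus opposite to that of its uncalled value in gated cells; the difference between the assays was not tested.

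Against these, P2ry12, another platelet ADP receptor, fell from 6.29, 8.24 and 5.84 CPM in WT to 3.48, 2.76 and 2.22 CPM in KO (log2 fold change -1.27, SE 0.21, adjusted p = 0.00127 by edgeR), with no overlap. Esam, an adhesion molecule of platelets and stem cells, had a fold change of -0.84, Tspan9, a tetraspanin, -0.82 and Pear1, a platelet aggregation receptor, -0.53.

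Among granule and cytoskeleton genes, Tuba8 rose from 10.9, 7.38 and 8.66 CPM in WT to 20.7, 24.0 and 23.3 CPM in KO (log2 fold change 1.34, SE 0.15, adjusted p = 1.65e-04 by edgeR), and Tuba4a, another alpha tubulin, from 248, 281 and 333 CPM to 503, 546 and 532 CPM (0.88). The tubulin pair had no overlap between groups. Arhgap6, a GTPase-activating protein of the cytoskeleton, rose by 0.55, Rab38, a GTPase of dense granule formation, by 0.51 and Rgs18 by 0.32. Those that fell included Tbxas1, thromboxane synthase (-1.26), Nrgn, a calmodulin-binding protein (-1.05), Pdgfb, a growth factor of alpha granules (-0.87), Cavin2 (-0.72), Mmrn1, multimerin (-0.67), Mylk, myosin light chain kinase (-0.66), Prkca, a protein kinase C (-0.58), and Vwf (-0.55). Fermt3, which activates integrins (-0.39), and Vcl, vinculin (-0.39), fell less.

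Among transcription factors, Nfe2, which drives platelet release, rose from 97.3, 123 and 143 CPM in WT to 201, 228 and 221 CPM in KO (log2 fold change 0.84, SE 0.13, adjusted p = 8.03e-04 by edgeR). Fli1 rose from 111, 116 and 101 CPM to 176, 181 and 187 CPM (0.73, SE 0.07, adjusted p = 9.31e-05). Both were clear of overlap. Rbpms2, an RNA-binding protein kept on this list, rose by 0.51 and Mafg, a partner of Nfe2, by 0.31. Ets1 had a fold change of -1.32, Cbfa2t3, a corepressor of the Gata1 complex, -0.68, Hhex -0.54, Erg, an ETS factor of stem cells, -0.43, and Gata1 -0.32. The Gata1 call (adjusted p = 0.041) was lost without KO 2, KO 3, WT 2 or WT 3.

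Of the leading genes outside the lists, Cited2 rose by 0.95, Nt5c3 by 0.75, Tmem40 by 0.35, Tm7sf3 by 0.31, Unc119 by 0.25 and Prkar2b by 0.24. Slc35d3 fell from 31.9, 23.0 and 26.8 CPM in WT to 14.3, 13.2 and 15.0 CPM in KO (log2 fold change -0.94, adjusted p = 4.77e-04 by edgeR), and Fyb (-0.47), Rsu1 (-0.31) and Lims1 (-0.29) fell as well. Rab27b, first among the gated cells, was not called (0.29, adjusted p = 0.0862), nor were Treml1 (0.10) and Rap1b (0.17). The groups of Rab27b did not overlap, at 12.1, 11.0 and 11.5 CPM in KO and 10.8, 9.11 and 8.22 CPM in WT.

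**Figure D4:**
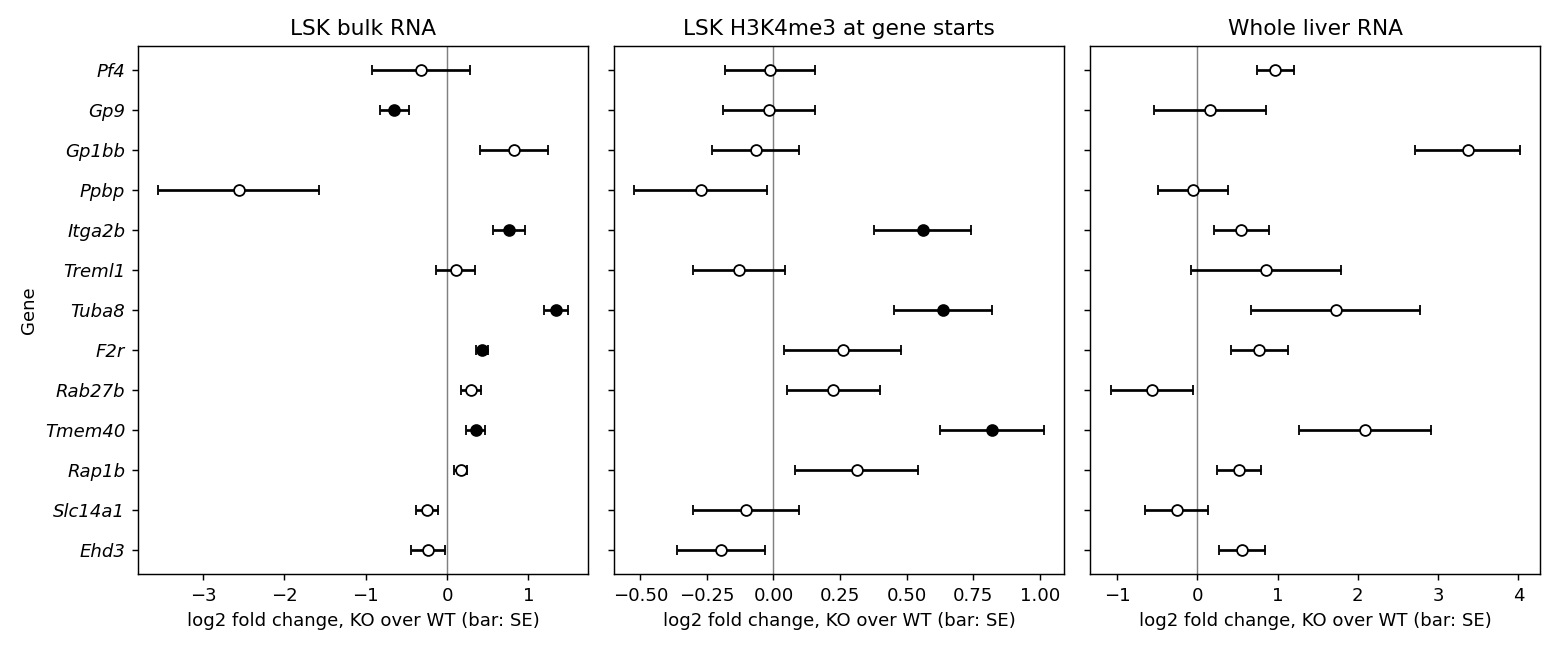
Log2 fold change of KO over WT with its standard error for the gate genes and 9 of the 10 genes leading the gated cells, in bulk LSK RNA, in H3K4me3 at gene starts and in whole liver RNA. Filled points are called at an adjusted p under 0.05: Tuba8, Itga2b and Tmem40 are called in the first 2 panels, and no gene shown is called in whole liver.

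H3K4me3 was read in the window of 3 kb at gene starts with the highest mean count of each gene, from 11508749 to 14451593 counts per library. Of 51039 genes tested, 1644 (3.22%) were higher and 2380 (4.66%) lower in KO. The split depended on the scaling: DESeq2's size factors within edgeR (RLE) gave 1999 higher and 1993 lower, and DESeq2 gave 789 and 37. The median over all windows was -0.15, -0.04 with RLE and -0.40 with library size alone, so values are to be read against that shift. Of the 96 list genes, 92 were tested, 12 were higher and 0 lower (1 lower at an unadjusted p under 0.05; DESeq2 called 11 higher and 0 lower), with a median of 0.35. The 12 became 5 without KO 1 or without WT 2 and 21 without WT 1. With library size alone 17 were higher and 4 lower. The median of the cell cycle list, 34 genes of no one lineage, was 0.23, so a median above that of all windows was not peculiar to the megakaryocyte lists.

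The windows of the gate genes were not called. Pf4 stood at 11.2 and 12.4 CPM in KO and 11.4 and 12.5 CPM in WT (log2 fold change -0.01, SE 0.17, adjusted p = 0.959 by edgeR), Gp9 at -0.02 and Gp1bb at -0.07. At Ppbp the window held at most 4.73 CPM. The groups overlapped at Pf4, Gp9 and Ppbp. At Gp1bb both KO values (19.1 and 19.4 CPM) lay below both WT values (20.04 and 20.26 CPM), with an adjusted p of 0.767 by edgeR.

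The called windows were those of surface and granule genes. Selp, the P-selectin of alpha granules, rose from 8.22 and 7.10 CPM in WT to 15.4 and 19.4 CPM in KO (log2 fold change 1.18, SE 0.17, adjusted p = 8.18e-09 by edgeR). Clu, clusterin, had 0.99, Thbs1, thrombospondin, 0.97, F2rl2 0.85, F5, coagulation factor V, 0.80, Slamf1, a surface antigen of stem cells, 0.64, Tuba8 0.64, Cd9 0.62, Itgb3 0.60, Itga2b 0.56, Vwf 0.54 and Tspan9 0.53. Itga2b stood at 40.7 and 43.1 CPM in KO and 30.0 and 26.8 CPM in WT (adjusted p = 0.0361), and the call was lost with RLE, DESeq2, without KO 1 and without WT 2. None of the 27 transcription factor windows was called by edgeR, 9 were higher and 0 lower at an unadjusted p under 0.05 (all windows: 10.1% higher and 17.6% lower), and DESeq2 called 3. Of the 25 leading genes 4 were called, Tmem40 (0.82), Fyb (0.69), Tuba8 and Itga2b.

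RNA and the mark were set side by side for the 109 list, leading and gate genes tested in both, all from LSK cells but from different samples. Bulk RNA was called for 55 (50.5%, against 44.2% of all genes) and H3K4me3 for 14 (12.8%, against 7.88% of all windows). Of these, 7 were called in both, 12.7% of those called in RNA and 50.0% of those called in the mark, which are close to the 12.8% and 50.5% among all 109. Tuba8, F2rl2, Itga2b and Tmem40 rose in both. Fyb (RNA -0.47, mark 0.69), Tspan9 (-0.82 and 0.53) and Vwf (-0.55 and 0.54) fell in RNA and rose in the mark. Selp and Thbs1, among the highest in the mark, were not called in RNA.

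**Figure D5:**
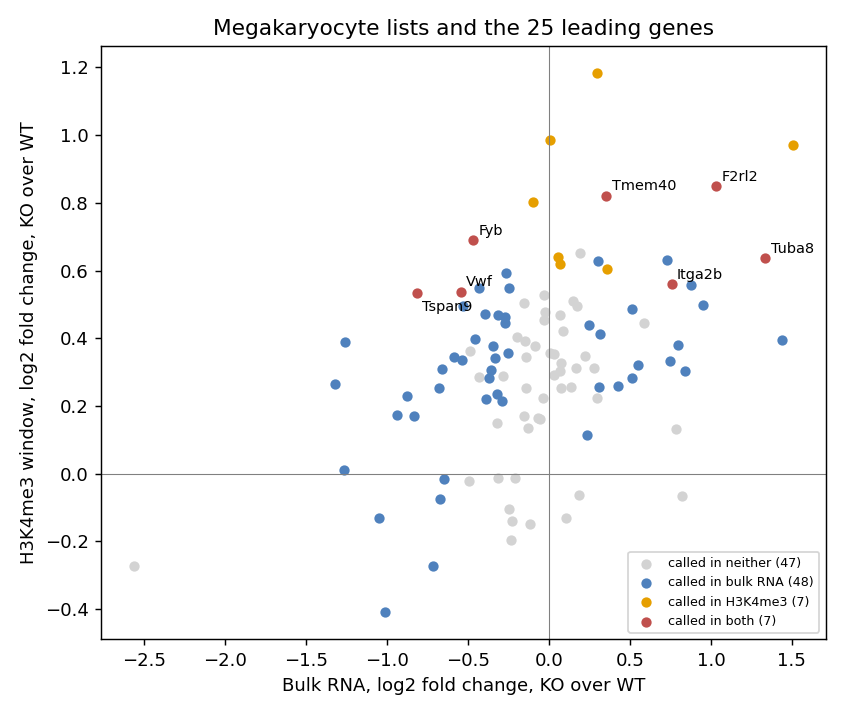
Log2 fold change of KO over WT in bulk RNA (horizontal) and in the H3K4me3 window (vertical) for the 109 genes tested in both, coloured by where they were called. Of the 7 genes called in both, 4 lie at the upper right and 3 (Fyb, Tspan9, Vwf) at the upper left.

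Whole fetal liver, where mature megakaryocytes are present, gave the highest Pf4 of the bulk assays, from 3100910 to 4120864 counts per library. Mettl3 stood at 5.93 and 24.0 CPM in KO and 26.4 and 21.8 CPM in WT (log2 fold change -0.69, adjusted p = 0.788 by edgeR); the liver also holds cells in which Vav-Cre is not active. Of 12056 genes tested, 25 (0.207%) were called, and none of the 88 list genes tested, of which 14 were higher and 4 lower at an unadjusted p under 0.05 (20.5%, against 11.4% of all genes). DESeq2 called 4 list genes higher (Fli1, Plcg2, Srgn and Tuba4a) and 2 lower (Lmo2 and Mafg). Over all genes it called 313 (2.60%), 162 higher and 151 lower. The median log2 fold change of the lists was 0.45 against 0.03 over all genes. Lists of other cell types differed in the same libraries: the median was 1.98 for 17 granulocyte genes (15 above 0), 0.82 for 16 monocyte and macrophage genes (15 above 0), 0.80 for 15 hepatocyte genes (15 above 0) and -0.83 for 29 erythroid genes (4 above 0), with 0, 1, 1 and 1 called. Their part in the megakaryocyte values was not tested.

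Pf4 stood at 182 and 178 CPM in KO liver and 97.3 and 86.5 CPM in WT liver (log2 fold change 0.97, SE 0.23, adjusted p = 0.174 by edgeR). Gp1bb stood at 36.0 and 30.0 CPM against 3.48 and 2.86 CPM (3.37, SE 0.65, adjusted p = 0.114), and Fli1 at 82.9 and 66.8 CPM against 13.6 and 15.0 CPM (2.39, adjusted p = 0.0694). In these 3 genes the KO values lay above the WT values without passing the threshold. Other list genes were separated the opposite way. Lmo2 stood at 89.7 and 91.3 CPM in KO and 229 and 267 CPM in WT (-1.45, adjusted p = 0.0694 by edgeR). Mafg (-0.99) and Gata1 (-0.98) were also lower in both KO libraries. Further list genes were separated in either direction, and the share of all genes without overlap was not counted. Gp9 stood at 23.1 and 10.4 CPM against 11.5 and 18.6 CPM and Ppbp at 38.9 and 31.1 CPM against 44.8 and 27.9 CPM, with groups that overlapped. Without WT 1, 9 list genes were higher and 2 lower, and without WT 2, 6 and 2, while the calls over all genes went from 25 to 718 (376 higher, 342 lower) and 616 (368 and 248), in a fit where the lone WT library is assumed to vary as the KO libraries do.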

How the data were processed

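Single-cell, bulk, H3K4me3 and whole-liver libraries of mouse fetal liver were analysed; all values used are counts as the authors deposited them (bulk and liver: raw counts of aligned reads per gene, H3K4me3: raw counts in 3 kb windows at transcript starts, single cells: counts per gene and cell, per the labels). Whether the single-cell counts are unique molecules is not given in the sources used here. The submitters' processing notes name Seurat 3.0, edgeR, bedtools, Picard 2.9.0, Bowtie2 2.2.9, STAR 2.5.3a and the build GRCm38.p5, without their roles.

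A cell was kept when it had 500 counts or more, fewer than 20% of them mitochondrial. Counts were summed per library over gated and over other cells. CPM ratios of gated to other cells used 10 CPM added to both and have no test. Genotypes were compared with edgeR 4.0.16 (R 4.3.3; filterByExpr, TMM, quasi-likelihood test, Benjamini-Hochberg adjustment, threshold 0.05), fitted over all genes with the libraries of that assay; CPM in those comparisons are TMM-normalized. SE was derived from the log2 fold change and the F statistic. Of 130983 deposited H3K4me3 windows, 123052 were distinct, and 1 was taken for each of 52453 genes. The fits were tested on simulated data with 1 fixed dispersion for every assay, not estimated from the libraries. Of 100 changes of 1 on the log2 scale, 52 were recovered in bulk, 7 in H3K4me3 and 11 in liver. These shares belong to that setting and are not the sensitivity of the real fits. DESeq2 1.42.0 was an alternative. Python 3.11.15, scipy 1.17.1, scanpy 1.11.5 and matplotlib 3.10.9 were used.

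The members, the gene lists and the tests were chosen with earlier results of these data known. Named genes were Mettl3 and the gate genes, the 25 genes highest (at least 20 counts in gated cells) and the 10 lowest (at least 20 counts in the other cells of each library) in gated against other cells with the same sign in 4 of 4 libraries, without Xist and Y-linked genes, called genes of the genotype comparisons in gated cells, up to 4 abundant members of each list, and called list members in the other assays. Other list members are named with their values, chosen after these were seen. Gates for other lineages took 3 or more counts (erythroid and lymphoid), 2 or more (stem) or 10 or more (granulocyte) of 4 markers. Some members of the lists and of the leading genes are not reported here by name, but counts and medians include them. The strand setting of the counting is not given in the sources used here, so reads from a gene and an overlapping antisense gene cannot be told apart.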

Additional observations from a re-analysis of the deposited data

How the results depend on the processing

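In gated cells the number of genes called between genotypes was 1 with library size alone, 0 with DESeq2, 1 without the filter, 4 with at least 20 counts in 2 libraries, 1 with a marker sum of 5 or more, and 2 to 8 with 1 library left out (8 without WT 2). Replicate numbers are shared between the groups but no source pairs them, and same-numbered libraries did not deviate together in every assay (correlations of 0.015 in gated cells, 0.26 in other cells, 0.044 to 0.23 in bulk, 0.30 in H3K4me3 and -0.018 in liver). With the replicate number as a block the gated count was 0, the count in other cells 112, bulk 7018 and liver 20. With that block, H3K4me3 gave 20842 called windows, 66 list genes higher and 1 lower. In other cells 3 genes were called with library size alone, 293 with DESeq2, 11 without the filter and 0 in each fit with 1 library left out. The interaction gave 0 to 9 genes with 1 library left out. The difference in the share of gated cells ranged from -0.344 to 0.402 percentage points with 1 library left out.

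In bulk, 19 to 29 list genes were lower with 1 library left out (19 without KO 2 or KO 3) and 11 to 20 higher. In H3K4me3, 5 to 21 list genes were higher (5 without KO 1 or WT 2, 21 without WT 1) and 0 to 1 lower with 1 library left out, 4 were lower with library size alone, and the windows called in all were 826 with DESeq2 and 1080 to 3858 with 1 library left out. In liver, 1 list gene was higher with library size alone, 4 with DESeq2, 5 without the filter and 0 to 9 with 1 library left out; 2 were lower with DESeq2, 1 without the filter and 0 to 2 with 1 library left out; all calls were 44, 313 and 391 under these settings and 9 to 718 with 1 library left out. Of gated against other cells, 29 genes were higher and 20 lower with a pseudocount of 50 CPM, 1669 lower with 1 CPM, 1076 lower with a marker sum of 5 or more, and 150 to 222 higher and 226 to 996 lower with 1 library left out. The cause of these changes was not tested.

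Values that changed sign were all uncalled, 28 in number. With 1 library left out, bulk Pf4 ranged from -0.73 to 0.77 (without WT 1) and Treml1 from -0.12 (without WT 2) to 0.28. In H3K4me3, Mettl3 was -0.00708 and Rab27b -0.021 with library size alone. RLE and DESeq2 gave 0.099 and 0.099 for Pf4, 0.094 and 0.094 for Gp9, 0.048 and 0.049 for Gp1bb and 0.017 and 0.017 for Slc14a1. Without the filter Pf4 was 0.000597, without KO 1 0.012 and without WT 2 0.058, from a lowest -0.061. Gp9 was 0.0095 without KO 2 and 0.22 without WT 1 (lowest -0.20), Slc14a1 0.073 and 0.025 (lowest -0.26), and Ehd3 0.056 without KO 2 (lowest -0.44). In liver, without KO 1 and without WT 1 Gp9 was -0.53 and -0.19 (highest 0.63) and Slc14a1 0.065 and 0.094 (lowest -0.66). Ppbp was 0.21 with library size alone, 0.11 without KO 2 and 0.29 without WT 1 (lowest -0.35), and Treml1 -0.033 without KO 2 (highest 1.91). Of the other values of single genes under alternatives, 1085 kept direction and side of the threshold, 104 lost a call, 20 gained one and 36 without a test moved by more than the spread. Results in gated cells are limited by the 7212 counts of WT 2.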
